A study of Mus musculus with 6 samples.

Results

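The cells described here are those with transcripts of late cell cycle among single brain cells of healthy young C57Bl/6J mice, whatever their lineage. Division itself was not observed. A cell was called cycling when it had at least 1 UMI (unique molecular identifier, 1 counted transcript molecule) of at least 4 of 7 genes of late cell cycle, Mki67, Top2a, Cdk1, Ccnb1, Birc5, Ube2c and Cenpf. Of 33273 deposited barcodes, 27530 had 250 to 6000 detected genes and under 25% mitochondrial UMIs, and 135 of these were cycling. Each cell was given the lineage whose list of 3 markers had the most genes detected: P2ry12, Cx3cr1 and Tmem119 for microglia; Cldn5, Flt1 and Cdh5 for endothelium; Sox11, Neurod1 and Dcx for the neural progenitor lineage; Olig1, Pdgfra and Sox10 for the oligodendrocyte lineage; Aqp4, Gja1 and Slc1a3 for astroglia. A cell with equal numbers in more than 1 list was left tied.

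The study isolated cells from the cortex of mice aged 3 weeks and from the hippocampus of mice aged 5 weeks, all female and wild type with no treatment, by a short enzyme digestion and removal of myelin on Percoll, a preparation that enriches microglia and vascular cells. White matter was trimmed away as far as could be done. Cells of 3 mice were pooled into 1 suspension for each region, and each suspension was run as 3 technical replicates on the 10x Chromium platform, which counts the 3′ ends of transcripts. Each region is therefore 1 sample, no test between regions is possible, and region, age, preparation and gene annotation cannot be told apart. Values are given with exact Clopper-Pearson (shares) or exact Poisson (summed counts) 95% intervals, which cover counting error only, and with the spread over technical replicates.

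A dividing cell copies its DNA in S phase and separates the copies in G2 and M phases. D cyclins with their kinases start the cycle by releasing E2F factors from the retinoblastoma protein, E2F factors switch on the genes of DNA replication, and a later wave of genes, to which the 7 genes of the rule belong, builds the spindle and drives mitosis. CDK inhibitors hold the cycle back. In the young brain, division is known in neural progenitors of the subgranular and subventricular zones, in oligodendrocyte progenitor cells, in microglia and, while vessels still grow, in endothelial cells.

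The late genes share a known promoter architecture, in which a cell cycle genes homology region (CHR, letters TTTGAA) and CCAAT boxes lie just before the start of transcription. As examples of rule genes with the letters TTTGAA near the start, 120 bases before the start are shown for Mki67 (a chromosome-coating protein of dividing cells), Top2a (the topoisomerase that untangles DNA copies) and Cdk1 (the kinase that drives entry into mitosis), from RefSeq on build GRCm38.p6, 5′ to 3′ on the gene's strand. The capitals mark TTTGAA or its reverse complement TTCAAA, and CCAAT or its reverse complement ATTGG. The stretch shown for Mki67 lies at chr7:135716380-135716499, that for Top2a at chr11:99024190-99024309 and that for Cdk1 at chr10:69352939-69353058, all on the minus strand.
Mki67: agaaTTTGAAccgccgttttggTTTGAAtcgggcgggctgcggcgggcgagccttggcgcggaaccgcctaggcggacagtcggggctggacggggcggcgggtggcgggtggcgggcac
Top2a: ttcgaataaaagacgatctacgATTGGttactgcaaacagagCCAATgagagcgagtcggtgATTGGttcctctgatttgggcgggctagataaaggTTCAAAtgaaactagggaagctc
Cdk1: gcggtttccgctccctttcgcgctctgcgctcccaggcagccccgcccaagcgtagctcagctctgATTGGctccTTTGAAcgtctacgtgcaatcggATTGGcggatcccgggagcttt
In the windows of 250 bases before to 50 bases after the start, TTTGAA on either strand was found for 5 of the 7 rule genes, with Ccnb1 and Birc5 the exceptions, and CCAAT on either strand for 6, with Birc5 the exception. Over all 32851 promoters these letters were found in 17.9% and 37.4%. Among 46 promoters of 41 matched genes of the 48 in the G2/M list, they were found in 63.0% and 73.9%. A match of letters is a description of the sequence and not a site shown to be used.

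The members were chosen by the UMIs of the 7 rule genes in each cell, so the values of these genes are a description. Mki67 had a UMI in 45 of 46 cortical cycling cells (97.8%) and in 78 of 89 hippocampal ones (87.6%), against 0.128% and 0.914% of all other cells. Top2a was found in 87.0% and 91.0% of cycling cells and Cdk1 in 87.0% and 79.8%. Birc5 (survivin, of the complex that corrects chromosome attachment) was found in 97.8% and 91.0%, and Cenpf, a kinetochore protein, in 84.8% and 85.4%, so each of these 5 genes was present in most members. Ube2c (the ubiquitin-conjugating enzyme of mitotic exit) was found in 89.1% and 93.3%, and Ccnb1 (cyclin B1, the partner of Cdk1) least often, in 67.4% and 77.5%. Of the other cells, Cdk1 was detected in 5.19% in the cortex and 2.13% in the hippocampus.

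The rule separated a small group from a large one. In the cortex 12233 cells had none of the 7 genes, 999 had 1, and 36 had 2, while 22 cells had all 7. In the hippocampus 13172 cells had none, 865 had 1, 62 had 2, and 50 had all 7. Just inside the threshold stood 5 cortical and 17 hippocampal cells with 4 genes, and just outside it 6 and 22 cells with 3 genes. Cells with 4 genes had a median of 20 and 16 detected genes of the 48 in the G2/M list, and cells with 3 genes a median of 13.5 and 9.5, so the edge of the group was gradual. As a background, mature oligodendrocytes do not divide. Among 1208 hippocampal cells with at least 5 of 6 mature oligodendrocyte genes, at a median of 21228.5 UMIs, 0 met the rule, which allows a share of up to 0.248% (3 counts of 1208), although single Mki67 UMIs occurred in 5.88% of them.

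Over all lineages, cycling cells had more UMIs than other cells. In the cortex the median was 17695 UMIs and 4257 genes in cycling cells, against 5848 UMIs and 2232 genes in the others. In the hippocampus it was 16418 UMIs and 4516 genes, against 6760 UMIs and 2550 genes. The order was the reverse in the hippocampal oligodendrocyte lineage, at 14980 UMIs in cycling and 20095 in other cells, and in hippocampal cells with no lineage marker, at 579 and 964.5. The mitochondrial share was close to that of the other cells, at 5.63% against 5.36% and 5.32% against 4.72%. Detection of 4 genes is easier in a deeper cell, so counts were also thinned to 3000 UMIs in every cell. Then 28 of 11709 cortical cells (0.239%, unthinned 0.384%) and 51 of 12106 hippocampal cells (0.421%, unthinned 0.644%) met the rule, with 1611 and 2104 shallower cells left out.

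Some barcodes weaken individual members. In the hippocampus, 339 barcodes occurred in more than 1 of the 3 libraries, 248 of them in all 3, and 69 barcodes were found in both regions. 4 of the 89 hippocampal members carried such shared barcodes, which were 3 distinct barcodes at 503 to 780 UMIs, and without all shared barcodes the share was 0.631%. No cortical member had a barcode shared between cortical libraries. Scrublet called 5 cortical and 2 hippocampal members doublets, and without called doublets the shares were 0.320% and 0.639%.

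The hippocampus held 89 cycling cells of 14210 (0.626%, 95% interval 0.503 to 0.770) and the cortex 46 of 13320 (0.345%, 95% interval 0.253 to 0.460). By library the hippocampal shares were 0.666%, 0.663% and 0.547%, a mean of 0.625% ± 0.0679 (SD, 3 technical replicates). The cortical shares were 0.276% and 0.196% in replicates 1 and 2 and 0.571% in replicate 3, a mean of 0.348% ± 0.197 (SD, 3 technical replicates). Cortex replicate 3 thus lay within the hippocampal range, and without it the cortical share was 0.235%. Total UMIs were 39662203, 41522304 and 42097490 in the cortical libraries and 50024850, 47800210 and 43963706 in the hippocampal ones, and the median over cells that passed the filters was 5857 and 6775 UMIs, so the hippocampal cells were also the deeper ones.

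**Figure D1:**
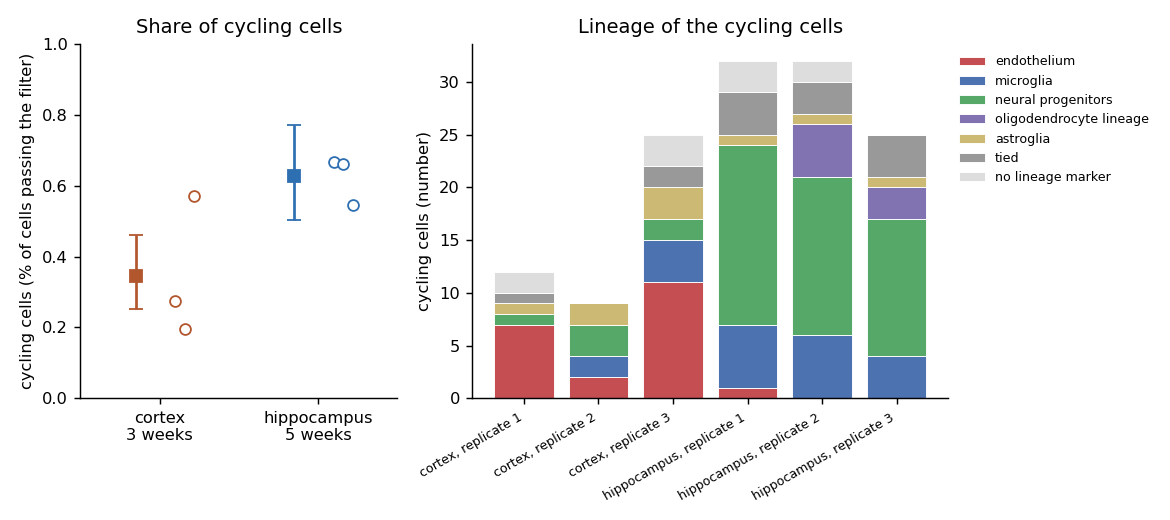
Left, cycling cells as a percentage of all cells that passed the filters, with squares for the pooled cells of each region and their exact 95% intervals, and open circles for the 3 technical replicates; right, number of cycling cells of each lineage in each of the 6 libraries, as stacked bars. Cortex replicate 3 stands at 0.571% beside 0.276% and 0.196%, endothelium is the largest group in cortex replicates 1 and 3, and the neural progenitor lineage is the largest in every hippocampal library.

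The lineages that made up the cycling cells were different in the 2 regions. In the cortex, endothelium gave 20 of 46 cycling cells (43.5%, 95% interval 28.9 to 58.9), with 7, 2 and 11 cells in replicates 1 to 3. In the hippocampus, endothelium gave 1 cell of 89, and the neural progenitor lineage gave 45 (50.6%, 95% interval 39.8 to 61.3), with 17, 15 and 13 cells in replicates 1 to 3. Microglia were the largest class of cells that passed the filters in both regions, yet gave 6 of 46 cycling cells in the cortex and 16 of 89 (18.0%) in the hippocampus. The 6 cortical cells were microglia by the marker rule only, since their profile as a group goes against the name. The remaining cortical members were 6 of the neural progenitor lineage, 6 astroglia, 3 tied and 5 with no lineage marker. The remaining hippocampal members were 8 of the oligodendrocyte lineage, 3 astroglia, 11 tied and 5 with no lineage marker.

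Set against the cells of the same lineage, cycling cells were commonest by far in the neural progenitor lineage of both regions. There 6 of 58 cortical cells cycled (10.3%, 95% interval 3.89 to 21.2) and 45 of 385 hippocampal cells (11.7%, 95% interval 8.65 to 15.3), intervals that overlapped almost fully. Cortical endothelium cycled in 20 of 3250 cells (0.615%, 95% interval 0.376 to 0.949), and hippocampal endothelium in 1 of 2430 (0.0412%, 95% interval 0.00104 to 0.229). The cortical endothelial share was 0.653%, 0.180% and 1.03% in replicates 1 to 3, and hippocampal endothelium reached 1 cell in only 1 library, so the library ranges did not overlap. The replicates are technical, and the difference was not tested.

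Microglia cycled in 16 of 6447 hippocampal cells (0.248%, 95% interval 0.142 to 0.403; 6, 6 and 4 cells by replicate) and in 6 of 6388 cortical cells (0.0939%, 95% interval 0.0345 to 0.204; 0, 2 and 4 cells). Of the 16 hippocampal members 12 had all 3 lineage markers, and of the 6 cortical ones only 1. Microglial genes were low in the 6 together, so their profile as a group goes against the name. Without cortex replicate 3 the cortical microglial share was 0.0467%. The oligodendrocyte lineage cycled in 8 of 1232 hippocampal cells (0.649%, 95% interval 0.281 to 1.28), with 0, 5 and 3 cells in replicates 1 to 3, so the value was 0.366% without replicate 2 and 0.976% without replicate 1. The cortex had 0 of 72, which allows a share of up to 4.17% (3 counts of 72), with an exact interval that ends at 4.99%, so a difference between regions was not detectable at this number of cells. Among cells that the marker rule counted as astroglia, 6 of 2723 cycled in the cortex (0.220%) and 3 of 2036 in the hippocampus (0.147%), but astroglial genes were low in these members, so their profile goes against the name. Of the 6 cortical cells 3 were called doublets, which left 0.112%, and under a mitochondrial limit of 10%, which took most other cortical astroglia, the share was 0.677%.

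**Figure D2:**
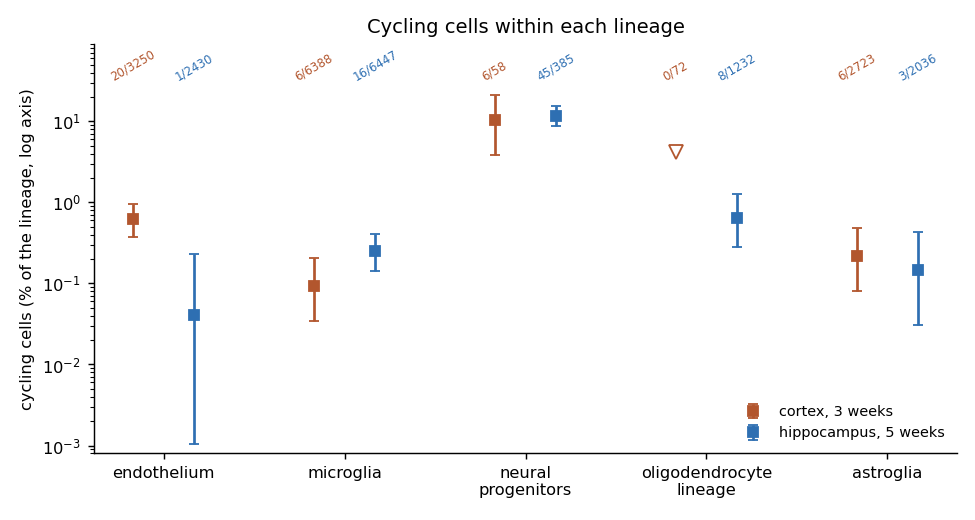
Share of the cells of each lineage that were cycling, on a log10 percent axis, for cortex and hippocampus, with exact 95% intervals and the number of cycling cells over all cells of the lineage printed above; the open triangle is the limit of 4.17% (3 counts of 72) for the cortical oligodendrocyte lineage, where 0 of 72 cells cycled. The neural progenitor lineage stands at 10.3% and 11.7%, and endothelium at 0.615% in cortex against 0.0412% in hippocampus.

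The upper limit of 6000 genes bears on the endothelial value. It removed 22 cortical barcodes that met the cycling rule, with a median of 63871.5 UMIs, of which 17 counted as endothelium, and 10 of the 22 had at least 2 markers of another lineage. Of the 17, 5 had at least 2 markers of another lineage, and 10 had at least 3 other astroglial or microglial markers. The limit had less effect in the hippocampus. There it removed 5 barcodes, none of them endothelial. With no upper limit the share of cortical endothelium that cycled was 1.09%, and that of hippocampal endothelium 0.0391%.

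Lineage names rest on few markers, so each group was checked against 10 further markers and against markers of other cell types. Of the 20 cortical endothelial members, 19 had all 3 of Cldn5 (the main tight junction claudin), Flt1 (a VEGF receptor) and Cdh5 (the cadherin of endothelial junctions), and the median member had 10 of 10 check markers, among them Pecam1, Tie1 and Slc2a1. Cldn5 ran from 1 UMI to 179 per cell, with a median of 94.5. The cell at 1 UMI had 0 UMIs of Flt1 and Cdh5 and 20 UMIs of the T-cell gene Cd3g, so its profile goes against the endothelial name. Pericyte markers reached at least 3 of 6 genes in 3 of the 20 cells, and Rgs5, the most abundant of them, summed to 259 UMIs over the 20 cells, of which 135 lay in 1 cell of replicate 2 and 96 in a called doublet of replicate 3.

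The 6 cortical members called microglia were mixed. By the 10 check markers 4 of them again counted as microglia, with a median of 5.5 of 10 markers over the 6 cells, but only 1 of them had all 3 of P2ry12 (21 UMIs), Cx3cr1 (26) and Tmem119 (11), and it also had 41 UMIs of the astroglial gene Gja1 and 28 of the fibroblast gene Dcn. Another had 14 UMIs of Cx3cr1 with 21 of Mrc1 and 58 of Pf4, genes of border macrophages, and the next had 3 UMIs of Cx3cr1, 14 of C1qa and 7 of Pf4. The other 3 had the B-cell genes Cd79a (23 UMIs) and Cd79b (12), the monocyte genes Plac8 (124) and Ly6c2 (79), or the globin genes Hbb-bs (3491) and Hba-a1 (1568) together with Alas2 (11), the haem synthesis enzyme of red cell precursors. The 6 cells were set against other cortical microglia by summed UMIs, scaled to the same total and called at 2-fold. Of 10 microglial check markers 10 were lower (median log2 ratio −3.95), where 25.9% of all genes compared were lower. As a group the 6 cells are therefore called by the marker rule and not named microglia from their profile.

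Blood-cell genes ran through other cortical members too. Among the 5 cortical members with no lineage marker, one had 35 UMIs of Cd79a, 16 of Cd79b and 78 of Plac8, one had 382 of H2-Aa (class II antigen presentation), and another pair had 48 and 6 UMIs of Nkg7, a gene of cytotoxic lymphocytes, with 4 and 5 of Eomes, which such lymphocytes also express. Among the 6 cortical astroglial members, 5 had Sox11, and the sixth had 3302 UMIs of S100a9 and 2765 of S100a8, genes of the neutrophil lineage, beside 20 of Gja1. Lymphocyte markers reached at least 3 genes in 5 cortical members and monocyte or neutrophil markers in 3. The mice had been perfused, and what part blood or marrow cells play in the cortical values was not tested.

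The members counted as astroglia were low in astroglial genes and high in genes of the progenitor lineage. All 9 had Gja1 and Slc1a3, but Aqp4 was found in only 2 of the 6 members from the cortex and 1 of the 3 from the hippocampus, and the check markers placed 3 of the 6 and 3 of the 3 in astroglia again. Set against the other cells of the class by summed UMIs, scaled to the same total and called at 2-fold, 9 of 10 astroglial check markers were lower in the cortex (median log2 ratio −3.03) and 9 of 10 in the hippocampus (median −3.85), where 21.2% and 25.2% of all genes compared were lower. Of the check markers of the progenitor lineage, 8 of 8 were higher in the cortex, and 4 of 6 higher and 1 lower in the hippocampus, where 27.1% and 28.0% of all genes were higher. Sox11 was found in 5 of the 6 and 3 of the 3 cells. These cells are therefore called by the marker rule and not named astroglia from their profile.

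Of the 6 cortical members of the progenitor lineage, 0 had all 3 of Sox11, Neurod1 and Dcx and 2 had only 1. The check markers placed all 6 of them in the same lineage, with a median of 7.5 of 10 detected. Of the 45 hippocampal members of the progenitor lineage, 33 had all 3 of Sox11, Neurod1 and Dcx, the check markers placed 34 in the same lineage with a median of 6 of 10 detected, and 13 had at least 2 markers of another lineage. At least 3 of 6 mature oligodendrocyte genes were found in 6 of the 45 and at least 3 of 5 mature neuron genes in 3. Of 16 hippocampal microglial members, all 16 were placed in microglia by the check markers, 12 had all 3 markers, P2ry12 ran from 0 to 35 UMIs per cell with a median of 17.5, and Cx3cr1 from 0 to 77 with a median of 37.5. Of the 4 others, 1 had 291 UMIs of H2-Aa with 28 of Ccr2, a chemokine receptor of monocytes, 1 had 28 of Cd3g with 25 of Nkg7, 1 had 11 of Pf4 with 1 of Cx3cr1, and 1 was a shallow cell of 883 UMIs. The first 3 of these had 0 UMIs of P2ry12 and Tmem119, so their profiles go against the microglial name. All values over the 16 members include them. Macrophage genes were also high in 2 of the 12, of which 1 had 40 UMIs of H2-Aa, 37 of Pf4 and 9 of Mrc1, and the other, a called doublet, 77 of Pf4 and 18 of Mrc1 beside 2 of P2ry12. All 8 members of the oligodendrocyte lineage had Pdgfra, with 1 to 58 UMIs and a median of 19.5, and 12 to 45 UMIs of Olig1 with a median of 27. The check markers placed all 8 in the same lineage with a median of 10 of 10 detected, and 4 of the 8 had at least 2 markers of another lineage. Of the 11 tied cells, 7 had neural progenitor and astroglial markers in equal number, 3 neural progenitor and microglial markers, and 1 microglial and astroglial markers.

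**Figure D3:**
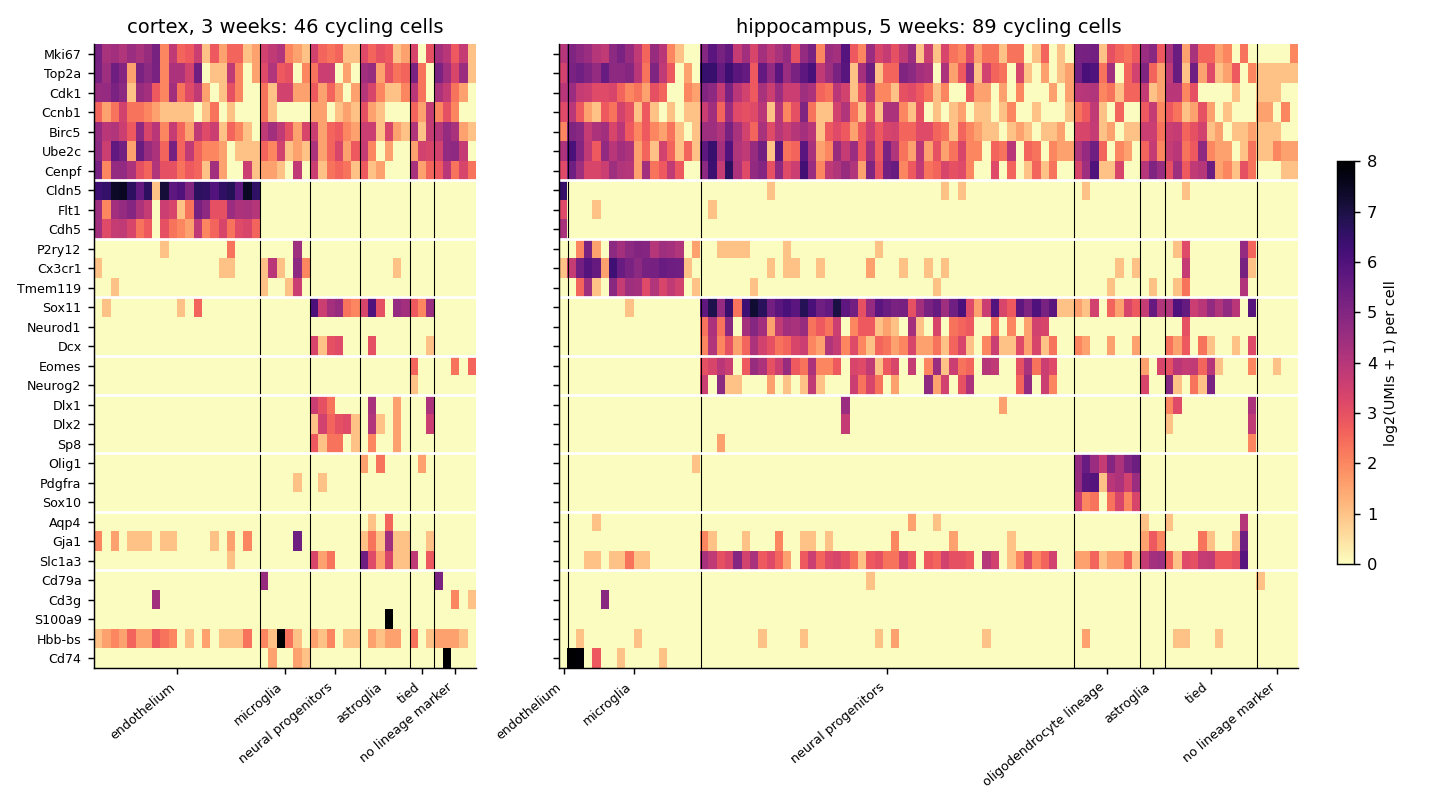
Rule genes, lineage markers and blood-cell genes (rows) in each of the 135 cycling cells (columns), grouped by region and lineage and coloured by log2(UMIs + 1), with the colour scale ending at 8, so that the highest values of S100a9, Cd74 and Hbb-bs lie beyond it. Cldn5 is present in all 20 cortical endothelial columns and Sox11 in all progenitor-lineage columns of both regions, single cells hold Cd79a, Cd3g, S100a9 or Cd74, and Hbb-bs is present at a low level in many cortical cells.

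For the pattern of expression, UMIs were summed over the cycling cells and over all other cells of the same lineage and region and given as CPM, counts scaled to the same total number of UMIs on each side, and a gene counted as higher or lower at 2-fold on log2(CPM + 10). Genes with at least 20 CPM on 1 side were compared. This fold separates cells of 1 sample, and the rule itself chose cells high in mitotic genes, so the counts describe the cells and support nothing. Cortical endothelium, with the cell rich in Cd3g included, and the hippocampal neural progenitor lineage had at least 20 cycling cells.

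In cortical endothelium, 578 of 7193 genes (8.04%) were higher in the 20 cycling cells and 349 (4.85%) were lower, with a median log2 ratio of 0.01 over all genes. Without cortex replicate 3 the lower genes numbered 578, and leaving out any replicate gave 633 to 649 higher genes. With the cell that goes against the endothelial name left out, an alternative added after seeing the data, 19 cells gave 531 higher and 337 lower genes. Of the list of G2/M genes 45 of 47 compared were higher and none lower, with a median log2 ratio of 3.35, and of the S-phase list 35 of 40, with a median of 2.16. All 10 genes of origin licensing, all 6 of nucleotide synthesis, all 14 mitotic kinases and regulators, all 9 kinetochore genes and all 9 condensin genes compared were higher. Rrm2, the subunit that sets the rate of deoxynucleotide synthesis, was at 229 CPM against 0.599 in the other endothelial cells, and Mcm5, of the replicative helicase, at 104 against 3.56. Hmgb2, a chromatin protein of dividing cells, was at 3488 CPM in cycling and 142 in other endothelium and had a UMI in 20 of 20 cells. Mki67 stood at 628 and 744 CPM in replicates 1 and 3 and at 188 in replicate 2, whose value rests on 2 cells, and at 627 in replicate 3 without the cell rich in Cd3g. The single lymphocyte gene compared, Cd3g, was higher only through that cell, since the other 19 had 0 UMIs of it. Pericyte genes summed to 11129 CPM in replicate 2 against 118 and 758 in replicates 1 and 3.

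Outside the gene lists, the highest ratios in cortical endothelium belonged to the clamp-associated factor Pclaf (540 CPM against 1.76, log2 5.55), the spindle midzone protein Prc1 (log2 5.42), the noncoding RNA Lockd (log2 4.21), the spindle protein Knstrn (log2 4.21), H1fx (log2 4.04), Mxd3 (log2 4.03), the lamin gene Lmnb1 (log2 3.95) and Trim59 (log2 3.91). Pclaf was at 569 and 612 CPM in replicates 1 and 3 and at 26.8 in replicate 2, while Knstrn was at 288, 456 and 94.2 and Trim59 at 185, 215 and 118 in replicates 1 to 3, so replicate 2 was lowest for some genes and highest for others.

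Of the 3 endothelial lineage markers, Flt1 was at least 2-fold lower and the others were not. Cldn5 was at 4755 CPM (95% interval 4540 to 4978) against 7643 in other cortical endothelium (log2 −0.68), and in replicates 1 to 3 at 4926, 4184 and 4746, all below the level of the other cells. Flt1 was at 782 CPM (95% interval 696 to 875) against 2162 (log2 −1.46), with 790, 885 and 758 by replicate. Cdh5 (log2 −0.23), Tek (log2 −0.31) and Tie1 (log2 −0.15) differed little, and Slc2a1, the glucose transporter of the barrier, was at 1158 CPM against 1850 (log2 −0.67). Of 10 endothelial check markers 4 were lower and none higher, among them Ly6c1 (log2 −1.33), Slco1a4, a transporter of organic anions (log2 −1.20), and Ly6a (log2 −1.07). Of 7 barrier genes 2 were lower, including Mfsd2a, the lipid transporter of barrier endothelium, at 203 CPM against 448 (log2 −1.11). Genes of sprouting vessels were not high: of 5 compared 2 were lower and none higher, with Apln, an apelin of tip cells, at 57.1 CPM against 77.4 and Esm1 at 0 UMIs in the 20 cells. Of 7 immediate early genes, which respond within minutes to stimulation, 2 were lower and none higher.

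Lower still were Mt1 and Mt2, metallothioneins, and Cxcl12, a chemokine made by arterial endothelium. Mt1 was at 44.1 CPM against 522 (log2 −3.30), with 44.3, 26.8 and 47.1 in replicates 1 to 3, and Mt2 at log2 −3.15. Cxcl12 was at 254 CPM against 2107 (log2 −3.00), with 406, 107 and 184 by replicate and a UMI in 9 of 20 cells against 79.7% of other endothelial cells. Rgcc was at log2 −2.69. Hbb-bt, a globin chain, had the lowest ratio, at log2 −7.03, although a UMI of it was found in 4 of 20 cycling cells and a like share of the others (18.2%), and 4 of 4 erythroid genes and 6 of 6 astroglial check markers compared were also lower. Also lower were 3 of 4 smooth muscle, 2 of 2 fibroblast and 1 of 1 ependymal genes compared, but none of 6 pericyte genes. Sums over the other endothelial cells therefore held globin, astroglial and other transcripts that the cycling cells had less of. The part of these in the ratios was not tested.

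Hippocampal cycling cells of the neural progenitor lineage resembled the endothelial ones in the cell-cycle lists. Of 7601 genes, 586 (7.71%) were higher in the 45 cycling cells and 592 (7.79%) lower, with a median log2 ratio of −0.07. Of the G2/M list 46 of 48 were higher (median 3.33) and of the S-phase list 38 of 43 (median 2.00), with 11 of 12 genes of origin licensing and 6 of 6 of nucleotide synthesis. Hmgb2 was at 4776 CPM against 203 and was found in 45 of 45 cells. Mki67 was at 816, 799 and 747 CPM in replicates 1 to 3, a narrow range. Outside the gene lists, the highest ratios included those of the mitotic kinase Pbk (log2 5.25), the histone genes Hist1h2ap (log2 5.20), Hist1h1b (log2 5.02) and Hist1h2ae (log2 4.25), Prc1 (log2 4.93), 2810417H13Rik (log2 4.86), which has the identifier of Pclaf in the cortical annotation, and the cohesin acetyltransferase Esco2 (log2 4.30). Histone genes of this family are near copies of each other, so their counts are uncertain.

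Within the hippocampal progenitor lineage, 4 of 7 radial glia genes were higher in the cycling cells, and of 8 genes of the dentate glutamatergic path 2 were higher and 4 lower. The other cells of the lineage held more transcripts of immature and mature neurons, given below, so this contrast mixes maturity with division. Sox2, a factor of neural stem cells, was at 440 CPM (95% interval 394 to 489) against 179 in the other cells of the lineage (log2 1.25), with 446, 383 and 497 in replicates 1 to 3. Insm1, a factor of intermediate progenitors, was at 616 CPM (95% interval 561 to 674) against 139 (log2 2.07), with 547, 677 and 622 by replicate and a UMI in 42 of 45 cells. Nes (log2 1.41) and Fabp7 (log2 1.53) were also among the higher radial glia genes. In the dentate list, Eomes, the T-box factor of intermediate progenitors of the dentate gyrus, had a UMI in 36 of 45 cells and was at 452 CPM against 258 (log2 0.79, under 2-fold). Neurog2 was at 253 CPM against 88.2 (log2 1.42), but its replicates spread from 121 to 420, and Neurod4 was at 84.6 CPM against 36.3 (log2 1.03).

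The lower dentate genes were Prox1, the factor of dentate granule cells, at 190 CPM against 560 (log2 −1.51) with 173, 178 and 221 by replicate, Calb2, the calcium-binding protein of immature granule neurons, at 14.3 CPM against 713 (log2 −4.89), Neurod2 (log2 −2.57) and Neurod6 (log2 −1.52). Of the 3 markers that assigned the cells, Neurod1 was lower, at 407 CPM against 1039 (log2 −1.33) with 381, 383 and 463 by replicate, while Dcx (log2 −0.98) and Sox11 (log2 −0.46) were under 2-fold. Of 10 check markers of the lineage 1 was higher (Insm1) and 5 lower, among them Stmn2, a growth cone protein, at 46.9 against 918 CPM (log2 −4.03), Tubb3 (log2 −2.28) and Cd24a (log2 −2.70). Of 4 mature neuron genes 3 were lower, and of 6 immediate early genes 4. Markers of other cell types went both ways. Lower were 4 of 4 mature oligodendrocyte genes, 2 of 2 pericyte genes and 1 of 1 choroid plexus gene compared. Higher were Gja1 (log2 1.36) of 2 astroglial lineage markers, Ptprz1 (log2 1.33) of 2 oligodendrocyte check markers and Sall1 (log2 1.23) of 6 microglial check markers, with none lower in these 3 lists, and of 8 astroglial check markers Sox9 (log2 1.11) was higher and Id4 (log2 −1.04) lower. The part of these markers in the ratios was not tested. The lowest ratios were those of the noncoding RNA Meg3 (1.30 CPM against 823, log2 −6.20) and the scaffold gene Ank3 (log2 −4.32), while Snhg11, Ndnf and Nrxn3 had 0 UMIs in the 45 cells against 338, 180 and 142 CPM in the others, of which only 9.41%, 4.41% and 15.0% had a UMI.

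Sox11, a factor of immature neurons and their progenitors, linked cells that the marker rule had split among progenitor, astroglial and tied groups. There were 14 such cycling cells with a Sox11 UMI in the cortex and 58 in the hippocampus. Of the cortical cells, 10 had a UMI of Dlx1, Dlx2 or Sp8 (71.4%, 95% interval 41.9 to 91.6), factors of the interneuron path from the ventricular wall, and 1 had a UMI of Eomes or Neurog2 (7.14%, 95% interval 0.181 to 33.9), factors of the glutamatergic path. Of the hippocampal cells, 47 had Eomes or Neurog2 (81.0%, 95% interval 68.6 to 90.1) and 6 had Dlx1, Dlx2 or Sp8 (10.3%, 95% interval 3.89 to 21.2), with 4 of these holding both. The split was present in every library: Dlx1, Dlx2 or Sp8 was in 2 of 3, 3 of 5 and 5 of 6 cells of the cortical replicates, and Eomes or Neurog2 in 16 of 21, 17 of 19 and 14 of 18 cells of the hippocampal ones. Prox1, another gene of the dentate list, was not used for the split and was found in cortical cycling cells too. It had a UMI in 4 of 6 cortical members of the progenitor lineage, 1 of 6 astroglial and 2 of 3 tied ones.

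The noncycling cells of the progenitor lineage, a narrower set than the Sox11 cells above, gave values that are not tested against them. Of 52 such cortical cells 43 had Dlx1, Dlx2 or Sp8 (82.7%) and 5 had Eomes or Neurog2 (9.62%), and of 340 hippocampal cells 53 (15.6%) and 173 (50.9%). In the hippocampal progenitor lineage 7 of 7 genes of the interneuron path were lower in cycling cells. Dlx5, Dlx6os1 and Gad2 among them had 0 UMIs in the 45 cycling cells, against 33.4, 163 and 56.0 CPM in the others. Most progenitor-lineage cells labelled cortex thus had a UMI of Dlx1, Dlx2 or Sp8, and where these cells came from was not tested.

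**Figure D4:**
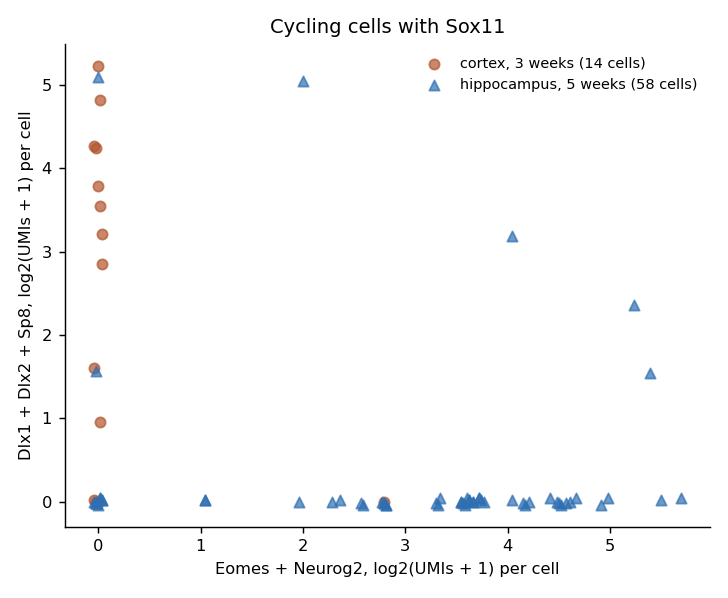
Each point is a cycling cell with a Sox11 UMI, with summed UMIs of Eomes and Neurog2 on the x axis and of Dlx1, Dlx2 and Sp8 on the y axis, both as log2(UMIs + 1) and slightly offset so that overlapping points show; circles are the 14 cortical cells and triangles the 58 hippocampal cells. Cortical cells lie along the y axis (10 of 14 above 0) and hippocampal cells mostly along the x axis (47 of 58 above 0).

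Hippocampal microglia (16 cycling cells) and the oligodendrocyte lineage (8) were under the 20 cells required and are described with that limit. In microglia, 12.5% of 7214 genes were higher and 10.9% lower, and 48 of 48 G2/M genes and 30 of 35 S-phase genes were higher. The level of P2ry12, the purine receptor of resting microglia, was 1151 CPM (95% interval 1012 to 1304) against 3314 in other microglia (log2 −1.52), with 556, 1561 and 1380 in replicates 1 to 3, all below the others. Siglech was at log2 −1.60 and the microglial factor Sall1 at log2 −1.43, and 3 of 8 homeostatic genes were lower. Csf1r, the receptor on which microglia depend, was at 1804 CPM against 3157 (log2 −0.80). Over the 12 members with all 3 lineage markers, P2ry12, which chose these cells, was at 1501 CPM (log2 −1.14), with 1646 in replicate 1, Siglech was at log2 −1.22, Sall1 at −1.20 and Csf1r at −0.43. Of 6 activation genes 3 were higher and 1 lower among the 16, with Apoe at 6362 CPM against 2409 (log2 1.40) but at 2288 in replicate 1 beside 7792 and 9450 in replicates 2 and 3. Over the 12 members it was at 8030 CPM (log2 1.73), with 4896 in replicate 1. Spp1 had a UMI in 5 and Lgals3 in 2 of the 16 cells. Markers of other immune cells moved with these values, since 3 of 3 macrophage, 2 of 2 monocyte or neutrophil and 4 of 5 lymphocyte genes compared were higher in the 16 cells. The 12 members with all 3 lineage markers had 0 UMIs of Cd3g, Nkg7 and Ccr2, but 2 of them had Pf4. Those 2 cells held 1160 of the 1311 UMIs of Apoe in the 12. Over the 10 members with 0 UMIs of Pf4, an alternative added after seeing the data, Apoe was at 1273 CPM (log2 −0.92), below the other microglia. By replicate Apoe was at 4896, 608 and 82.8 CPM in these 10. Replicate 1, with 2 of the 10 cells, thus stayed above the other microglia without Pf4. The higher level of Apoe rests on the cells with Pf4 in replicates 2 and 3 only. Over the same 10, P2ry12 was at 2023 CPM (log2 −0.71), Siglech at log2 −0.79, Sall1 at −0.77 and Csf1r at −0.21, all under 2-fold, so the 2-fold calls of the first 3 also rest on members with macrophage genes or without all 3 lineage markers.

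The 8 cycling cells of the hippocampal oligodendrocyte lineage carried progenitor genes, with 45 of 47 G2/M genes and 39 of 41 S-phase genes higher. Pdgfra, the growth factor receptor of oligodendrocyte progenitor cells, was at 1793 CPM against 41.2 in the other cells of the lineage, Cspg4 (NG2) at 444 against 17.6, and Ptprz1 at 4103 against 150, and 5 of 5 progenitor genes were higher. All 6 mature oligodendrocyte genes compared were lower, and the myelin genes Mog and Mobp had 0 UMIs. Genes of committed precursors were mixed: Gpr17 (log2 1.10) and Neu4 (log2 2.02) were higher, Bcas1 (log2 −2.13) and Tcf7l2 (log2 −1.22) lower, and Bmp4 and Enpp6 at 0 UMIs. The other cells of the lineage were rich in myelin transcripts, and 33.3% of 8118 genes were higher and 13.8% lower, so this contrast mixes maturity with division. Of markers of other lineages, 6 of 6 astroglial and 4 of 7 microglial check markers compared were higher and none lower, as were Sox11 (log2 4.15) and Dcx (log2 2.71), and their part in the ratios was not tested.

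Which D cyclin was detected varied with the lineage, although no difference between lineages was tested. Cortical cycling endothelium had Ccnd1 (cyclin D1) in 16 of 20 cells, at 288 CPM (95% interval 237 to 347) against 157 in other endothelium (log2 0.84, under 2-fold), with 480, 241 and 174 in replicates 1 to 3, and Ccnd2 (cyclin D2) in 4 of 20 cells, at 31.2 CPM against 90.9. Hippocampal progenitor-lineage cells had Ccnd2 in 44 of 45 cells, at 1523 CPM (95% interval 1437 to 1613) against 812 (log2 0.90, under 2-fold), with 1266, 1591 and 1724 by replicate, and Ccnd1 in 7 of 45 cells, at 22.1 CPM. The 6 cortical cells of the progenitor lineage were alike in this, with Ccnd2 in 6 of 6 cells at 3863 CPM and Ccnd1 in 0 of 6. Ccnd2 was also in 3 of 3 hippocampal astroglial and 10 of 11 tied cells. The 8 cells of the oligodendrocyte lineage had Ccnd1 in 7 cells at 1522 CPM against 25.8, with 1715 and 1002 in replicates 2 and 3, and Ccnd2 in 4 cells. Hippocampal cycling microglia had Ccnd1 in 7 of 16 cells at 117 CPM, close to the 132 of other microglia, and Ccnd3 in 9 of 16 cells at 135 CPM against 39.8 (log2 1.54), with 291, 41.1 and 60.7 in replicates 1 to 3. Lymphocyte genes summed to 1032 CPM in replicate 1 beside 54.8 and 30.3, and over the 12 microglial members with all 3 lineage markers Ccnd3 was at 67.4 CPM (log2 0.64, under 2-fold). Over the same 12, Ccnd1 was at 79.6 CPM (log2 −0.66), and Ccnd2 was in 2 cells at 49.0 CPM against 11.2 (log2 1.48).

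Of the CDK inhibitors compared, 3 of 7 were higher and 2 lower in cortical endothelium, 3 of 5 higher and 1 lower in the hippocampal progenitor lineage, 5 of 7 higher and 1 lower in hippocampal microglia, and 5 of 6 higher and none lower in the oligodendrocyte lineage. Of all genes compared, 8.04%, 7.71%, 12.5% and 33.3% were higher in these 4 lineages in the same order, so the counts cannot be read across lineages. Cdkn2c (p18, of the INK4 family) was higher in all 3 lineages with 16 or more cycling cells. It had a UMI in 18 of 20 cortical endothelial cells (231 CPM against 21.3, log2 2.95, with 229, 53.6 and 264 by replicate) and in 14 of 16 hippocampal microglia (378 CPM against 13.5, log2 4.05, with 357, 260 and 531). In the progenitor lineage its log2 ratio was 1.31. Cdkn2d (p19 of the same family) followed, at log2 2.21, 3.63 and 1.98 in endothelium, microglia and the progenitor lineage. Over the 12 microglial members with all 3 lineage markers, Cdkn2c was at 410 CPM (log2 4.16) and Cdkn2d at log2 3.45. Cdkn3, a phosphatase of the mitotic wave despite its name, was in 16 of 20 endothelial cells (log2 3.87) and in 23 of 45 progenitor-lineage cells against 0 of 340 others. Cdkn1c (p57), which holds cells in quiescence, was lower in cortical endothelium (28.6 CPM against 302, log2 −3.02, with 14.8, 107 and 23.5 by replicate) and in the hippocampal progenitor lineage (3.90 against 40.1, log2 −1.85, 3 UMIs in all), and it had 1 UMI in the 16 hippocampal microglia (log2 −1.41).

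Hippocampal microglia were high in Cdkn1a (p21), the inhibitor induced by DNA damage and p53. Cdkn1a had a UMI in 11 of 16 cycling hippocampal microglia against 9.72% of the others, at 489 CPM (95% interval 400 to 592) against 28.2 (log2 3.71). The replicates were at 52.9, 685 and 774 CPM, so replicate 1 was well below the rest though above the other microglia. Over the 12 members with all 3 lineage markers Cdkn1a was at 637 CPM, with 123, 685 and 774 by replicate. The macrophage gene Pf4 moved with it over these 12, at 0, 507 and 1168 CPM by replicate, but the 2 cells with Pf4 held 11 of the 104 UMIs of Cdkn1a. Over the 10 members with 0 UMIs of Pf4, Cdkn1a was at 784 CPM (log2 4.38), with 123, 847 and 1055 by replicate. In cortical endothelium Cdkn1a was at 309 CPM against 499 (log2 −0.67). Cdkn2a, which encodes p16 and p19ARF, had a UMI in 12 of the 16 cycling microglia, at 117 CPM against 1.21. Among the 12 members with all 3 lineage markers it had a UMI in 11, at 147 CPM. The difference of these ratios between lineages was not tested, since the cells of a lineage come from 1 suspension.

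**Figure D5:**
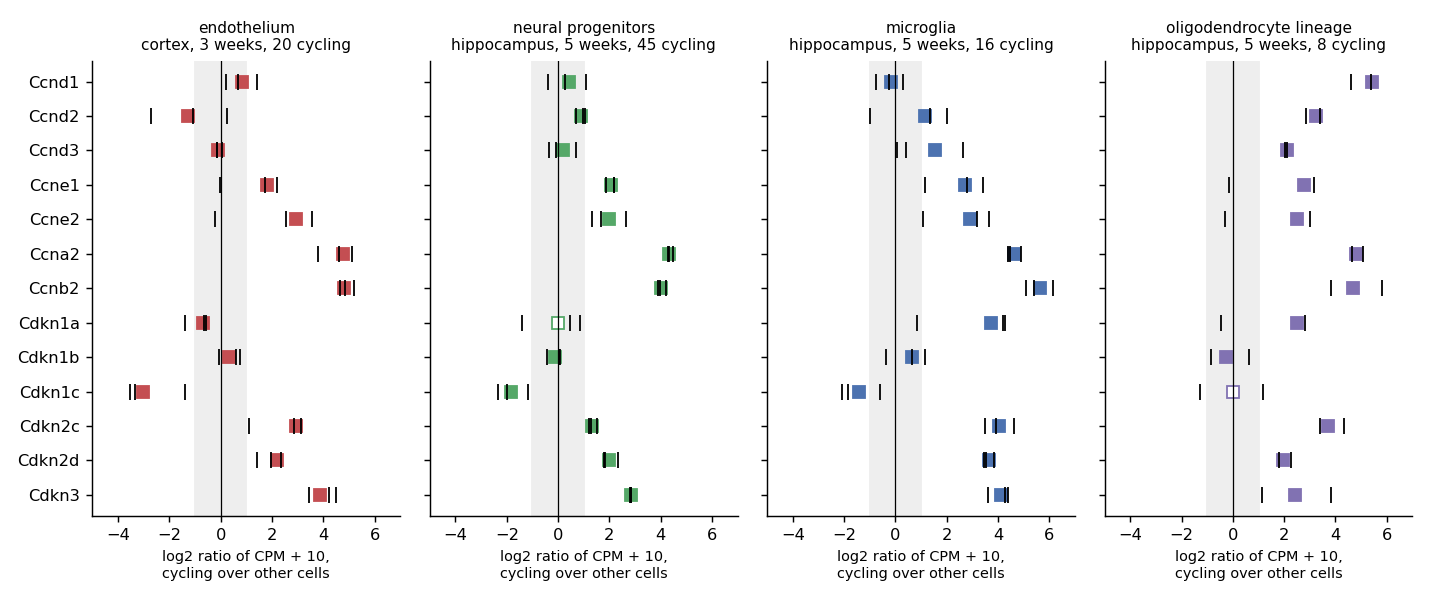
Log2 ratio of cycling to other cells, on log2(CPM + 10), for cyclins and CDK inhibitors in cortical endothelium and in the hippocampal progenitor lineage, microglia and oligodendrocyte lineage; squares are the pooled cells, black ticks the technical replicates, open squares have under 20 CPM on both sides, and the grey band is under 2-fold. Cdkn2c lies at 2.95, 1.31 and 4.05 in the first 3 panels, Cdkn1c at −3.02 in endothelium and −1.85 in the progenitor lineage, Cdkn1a at 3.71 in microglia, and Ccnd1 at 5.42 in the oligodendrocyte lineage.

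The rule reads the end of the cycle. S-phase genes made up a median of 20.1% of the UMIs of the S and G2/M lists together in cortical members (4.00% to 68.2%) and 17.9% in hippocampal members (0% to 71.0%). They passed 50% in 8 cortical and 13 hippocampal members, and 9 and 17 cells lay between 40% and 60%. At least 12 of the 43 S-phase genes were detected in 37 of 46 and 60 of 89 members, and also in 67 of 13274 cortical and 132 of 14121 hippocampal cells outside the rule, of which 6 and 17 had at least 2 rule genes. Those cells outside the rule with at least 12 S-phase genes had a median of 22437 UMIs in the cortex and 19349.5 in the hippocampus. All cells outside the rule had 5848 and 6760. Detection of 12 genes is easier in a deeper cell, and the part of depth was not tested. The shares given here leave out these cells, whether or not they were in S phase.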

How the data were processed

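Counts were deposited by the authors as 10x matrices of UMI counts per gene and barcode, 1 matrix per technical replicate. The submitters' processing notes name Cell Ranger 5.0.1 and mm10, and per the file headers the software was 3.0.1 for cortex and 3.1.0 for hippocampus. The annotations held 31053 and 27998 genes, with 27514 shared identifiers. The filters kept barcodes whose detected genes numbered 250 to 6000 and whose mitochondrial share of UMIs was below 25%.

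The members, marker lists and gene lists were chosen with earlier results of these data known. Doublets were called with Scrublet in each library at 0.8% per 1000 cells and kept in the main values. UMIs were summed over cells and scaled to CPM with 10 added before log2, and a change of 2-fold was called without a test, since each region is 1 pooled suspension. Genes named outside the fixed lists were, for each lineage with at least 20 cycling cells, the 8 highest ratios at 100 CPM or more in cycling cells and the 5 lowest at 100 CPM or more in other cells, with the same direction in all 3 replicates. Some genes that this rule or the lists name are not reported here. Microglia and the oligodendrocyte lineage, under 20 cycling cells, were added after the values were seen, as were single cells described by their leading genes. Median UMIs per cell were 5908, 5800 and 5873.5 in the cortical replicates and 6785, 6914 and 6629 in the hippocampal ones.

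Alternatives were other numbers of rule genes, thinning to 3000 or 1000 UMIs, other mitochondrial and gene limits, other lineage rules, pseudocounts, expression limits and leaving out doublets, shared barcodes or a replicate. On simulated data for the cortical endothelial comparison (6628 genes) 100% of genes raised 4-fold and 98% of genes lowered 4-fold were recovered and 0.513% of unchanged genes were called. For the hippocampal progenitor comparison (7154 genes) the shares were 100%, 98% and 0.0719%. The simulated counts varied by counting error only, without differences between cells. Real sums can rest on single cells, as for Rgs5 in cortical endothelium, with 135 of 259 UMIs in 1 cell. The simulated shares therefore cannot tell how many genes called in the real data were called wrongly. Promoters came from RefSeq on GRCm38.p6 and were matched by symbol. Python 3.11.15, numpy 2.4.6, pandas 2.3.3, scipy 1.17.1, scanpy 1.11.5 and matplotlib 3.10.9 were used.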

Additional observations from a re-analysis of the deposited data

Results flagged for a closer look

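Of 411 pairs of a gene and a lineage with a ratio of cycling to other cells in both regions, 8 moved one way in every library of the cortex with cycling cells and the other way in every library of the hippocampus. In the cortex the cycling side held 1 to 3 cells per library, as did hippocampal astroglia with 1 cell each, and the difference between regions was not tested. Only a chosen set of genes was compared, so no share over all genes stands beside the 8. How many of the 411 pairs would do so by random signs was not computed, so the count is not read as a result. As log2 ratios of cycling to other cells, Cdkn1c in the progenitor lineage was at 1.52 in cortex and −1.85 in hippocampus. Its cortical value rests on 0 to 2 UMIs per cell. Sox2 in the same lineage was at −0.20 and 1.25, the replication gene Gins1 at −0.43 and 0.84, and Jpt1 at −0.61 and 0.11. In astroglia Cd24a was at 2.89 in cortex and −2.92 in hippocampus, Nnat at 2.90 and −0.90, Sox2 at −0.60 and 0.67, and Tubb4b at −0.40 and 0.90. In the cortex 5 of the 6 astroglial cells had Sox11 UMIs, and 3 of the 6 were called doublets.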

How the results depend on the processing

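No paired analysis was possible because each region is 1 suspension and no test was made. The planned ratio of cycling cells of a lineage between regions was not run, since no lineage had 20 cycling cells in both, and the log2 ratios set side by side above are each of 1 region. The hippocampal share of cycling cells was 0.781% at 3 or more rule genes, 0.507% at 5 or more, 0.421% thinned to 3000 UMIs and 0.473% thinned to 1000 UMIs with 2 or more genes. The progenitor-lineage share of hippocampal members was 45.9% at 3 or more rule genes, 61.8% with ties settled by UMIs, 47.2% where 2 of 3 markers were required and 44.9% with the 10 other markers. In cortical endothelium 606 genes were lower with a pseudocount of 1, 368 higher and 194 lower at 50 CPM or more, and 348 higher and 153 lower with no upper gene limit, an alternative chosen after seeing the data like that without cells under 1000 UMIs, that of members with all 3 lineage markers and that of microglia with 0 UMIs of Pf4. In the hippocampal progenitor lineage 908 genes were lower with a pseudocount of 1 and 313 at 50 CPM or more. The causes were not tested. Leaving out a replicate gave cortical shares of 0.235% to 0.424%, hippocampal shares of 0.606% to 0.664%, endothelial shares of cortical members of 38.2% to 48.6% and progenitor-lineage shares of hippocampal members of 49.1% to 52.6%. It gave 633 to 649 higher and 417 to 578 lower genes in endothelium (578 without cortex replicate 3), and 569 to 620 and 590 to 689 in the progenitor lineage. Apoe in hippocampal microglia went from log2 1.40 to −0.92 over the 10 members with all 3 lineage markers and 0 UMIs of Pf4, and no other value past 2-fold changed sign under the settings run for the totals, lists and named genes of the 2 main lineages. Among total shares, leading lineage shares and gene counts, 76 settings stayed within the replicate spread or 1.5 times the count and the 16 given above moved. Among values for single lineages, lists and genes, 483 settings stayed within the spread over technical replicates and 72 moved beyond it. Depth limits lineages with few cells, where 1 cycling cell more or less changes the share.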
